A study of Mus musculus with 9 samples.

Results

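The interferon response genes described here are 34 mouse genes, taken by symbol from a fixed set of genes known to respond to interferons, out of 30407 features shared by all libraries of the series. The rule that names them uses no measured value, but the members and lists were chosen with earlier results of these data known. All 34 symbols were found. The tests covered 31 of them. Rsad2 (22 UMIs in all libraries together, at 0 in 2 libraries), Ifih1 (9 UMIs, at 0 in 3) and Psmb8 (7 UMIs, at 0 in 6) did not pass the filter on low counts.

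The libraries come from NIH3T3-CG cells, labelled as embryonic fibroblasts, a mouse cell line. The cells were treated with SAG, a small molecule agonist of the Hedgehog pathway that acts on Smoothened, and released from 6-well plates with trypsin. RNA of single cells was counted with the 10x Genomics 3' kit, in which a unique molecular identifier (UMI) marks each captured molecule. Experiment 1 has 3 libraries, at 0, 17 and 30 h of SAG, and its labels do not mention Dox. Experiment 2 has 6 libraries, at 0, 19 and 30 h of SAG without Dox (the no-Dox arm) and at the same times with Dox (the Dox arm). Every group carries the same line. What Dox induces in these cells, and what the letters CG stand for, is not given in the labels. No library without SAG matches the later times, so SAG time cannot be told apart from time in culture. Each combination of experiment, Dox and time is 1 library, and nothing says that libraries came from separate cultures, so a p-value here reflects how much these libraries vary, and that variation may be technical.

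Interferons are secreted proteins that warn cells of infection. Type I interferons bind the receptor made of Ifnar1 and Ifnar2, whose kinases activate Stat2. With Irf9 it is part of a complex that binds the interferon-stimulated response element (ISRE) in the promoters of target genes. The GAS element is the other sequence known from interferon responses. Many target genes are also held at a low level in unstimulated fibroblasts, and some can be switched on directly by Irf3, Irf7 or Irf1. The members cover the system of Isg15, antiviral effectors, transcription factors, sensors of foreign RNA, a group of ADP-ribosyltransferases with a partner ligase, proteins of antigen presentation and a chemokine.

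Promoter windows of the members were searched for the ISRE and GAS letters. RefSeq windows of GRCm38.p6, from 250 bases before to 50 after a start, were matched for 28 of the 34 genes. None was matched for Usp18, Dhx58, Rtp4, Parp14, Parp9 and Zbp1. The ISRE was searched as GAAA, any 2 bases and GAAA again, on both strands, overlapping matches included. It was found in windows of 13 of the 28 genes (46.4%), against 3.99% of the 27025 genes with a window. The GAS letters TTCNNNGAA, a palindrome, were found in 8 of the 28, against 9.55% of all genes. The 250 bases upstream of the start are printed 5' to 3' on the gene's strand for Isg15, Ifit1 and Oas1a, which were called in both the comparison of experiments and that of Dox, for Bst2 and Cxcl10, which were called lower at 30 h of SAG, and for Ifit2, which moved the other way with Dox. Capitals mark the ISRE letters.

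Isg15: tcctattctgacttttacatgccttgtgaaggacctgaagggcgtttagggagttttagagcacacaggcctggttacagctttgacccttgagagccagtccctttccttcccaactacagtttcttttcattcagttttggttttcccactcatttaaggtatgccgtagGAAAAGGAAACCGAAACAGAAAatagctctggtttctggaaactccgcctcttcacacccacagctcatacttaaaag
Ifit1: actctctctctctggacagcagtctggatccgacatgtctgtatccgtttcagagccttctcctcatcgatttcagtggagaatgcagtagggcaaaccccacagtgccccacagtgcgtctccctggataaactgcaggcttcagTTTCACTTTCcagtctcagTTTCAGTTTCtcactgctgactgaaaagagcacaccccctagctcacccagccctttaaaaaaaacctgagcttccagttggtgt
Oas1a: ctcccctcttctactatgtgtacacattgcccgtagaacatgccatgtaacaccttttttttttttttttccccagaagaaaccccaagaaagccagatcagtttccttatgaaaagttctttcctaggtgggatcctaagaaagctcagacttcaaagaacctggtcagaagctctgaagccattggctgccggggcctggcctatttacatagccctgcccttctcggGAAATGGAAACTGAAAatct
Bst2: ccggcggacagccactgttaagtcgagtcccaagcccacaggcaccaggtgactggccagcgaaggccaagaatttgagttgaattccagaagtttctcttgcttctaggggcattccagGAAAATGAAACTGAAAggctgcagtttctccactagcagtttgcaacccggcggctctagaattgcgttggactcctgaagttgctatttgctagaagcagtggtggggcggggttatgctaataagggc
Cxcl10: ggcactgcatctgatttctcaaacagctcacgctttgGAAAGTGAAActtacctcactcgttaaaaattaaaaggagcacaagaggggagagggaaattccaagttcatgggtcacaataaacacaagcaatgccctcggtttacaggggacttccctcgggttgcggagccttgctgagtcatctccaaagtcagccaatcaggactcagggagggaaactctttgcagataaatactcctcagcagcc
Ifit2: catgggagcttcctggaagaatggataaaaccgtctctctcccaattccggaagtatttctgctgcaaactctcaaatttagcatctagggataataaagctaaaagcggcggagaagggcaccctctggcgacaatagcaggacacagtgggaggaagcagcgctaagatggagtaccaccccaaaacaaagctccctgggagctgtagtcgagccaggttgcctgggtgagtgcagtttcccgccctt

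The stretches lie at chr4:156200819-156201068 (minus strand, Isg15), chr19:34640639-34640888 (plus strand, Ifit1), chr5:120907526-120907775 (minus strand, Oas1a), chr8:71537473-71537722 (minus strand, Bst2), chr5:92348890-92349139 (minus strand, Cxcl10) and chr19:34550444-34550693 (plus strand, Ifit2). Isg15 holds a run of 3 overlapping matches, and Oas1a and Bst2 a run of 2. In Ifit1 a pair of separate matches reads on the other strand. Cxcl10 has 1 match, far from its start within the window. Ifit2 has 2 windows in RefSeq, and the letters are in neither, which says nothing about other positions. Ifit1, Ifit2 and Ifit3 are neighbours on chromosome 19.

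Kept cells had 5000 or more UMIs, of which mitochondrial genes gave no more than 10%. They numbered 571 to 6520 per library, with a median of 8025 UMIs per cell at 19 h of the no-Dox arm and of 28335 to 48188 in the other 8 libraries. Cells under 1% mitochondrial UMIs made up 19.7% at 30 h of the no-Dox arm, 18.2% and 17.9% at 19 and 30 h with Dox, and 0.429% to 1.41% elsewhere. Of 18733 kept barcodes 43 occurred in 2 or more libraries. The fibroblast label held: 9 fibroblast markers summed to 2651 to 7872 UMIs per 1000000 UMIs (CPM), and 9 macrophage and immune markers to 7.4 to 19.4, with C1qa at 0 in every library. Of these immune markers Lyz2 reached 17.7 CPM and Cd68 13.8. Lymphocyte and plasmacytoid dendritic cell markers summed to at most 0.206, with Cd3e and Siglech at 0.

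Levels below are CPM, UMIs scaled to the total of shared UMIs of a library, summed over its kept cells, and a lower sum cannot tell fewer expressing cells from less RNA per cell. They serve to compare libraries, not genes. Changes are log2 values from edgeR after TMM scaling, which centres the bulk of genes on no change, and a gene is called at an adjusted p under 0.05. The TMM factors ran from 0.7101 to 1.172, so changes can differ from ratios of CPM. With scaling to total UMIs alone, an alternative added after seeing the data, the median of all genes stood at 0.28 for 30 h of SAG, 0.41 for Dox and -0.47 for Experiment 2 against 1.

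**Figure D1:**
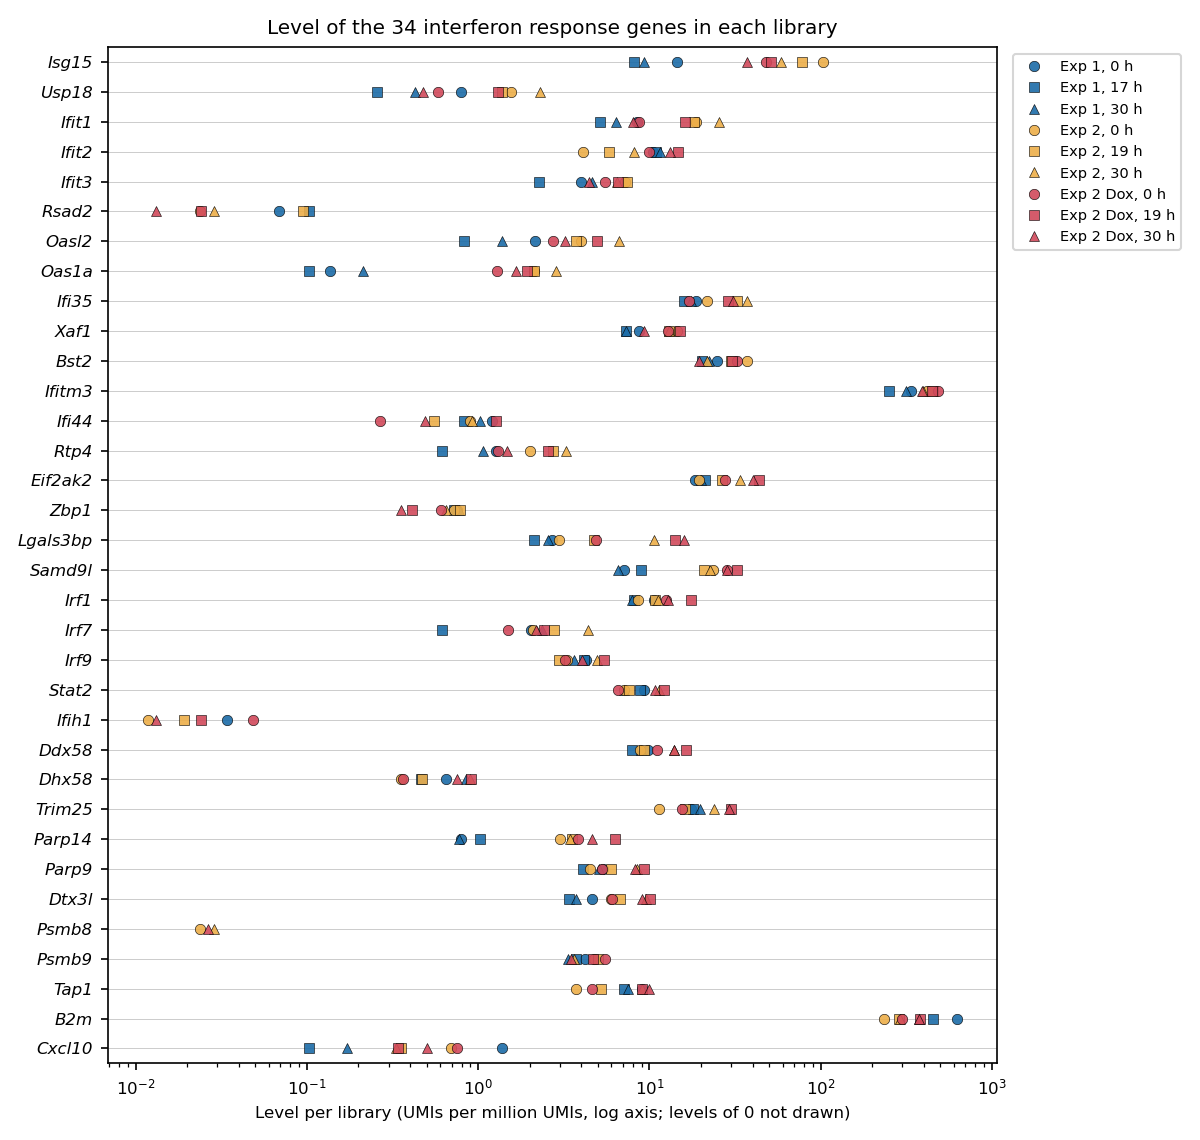
Level of each of the 34 genes in each of the 9 libraries, in CPM on a log axis, with 1 point per library (colour for experiment and Dox, shape for SAG time) and genes in order of role; levels of 0 are not drawn. Isg15, Oas1a, Parp14 and Samd9l lie lower in the 3 libraries of Experiment 1 than in the other 6.

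The widest differences among the members lay between the experiments. Without Dox, 21 of the 31 tested members were higher in Experiment 2 and 0 lower, where 20.6% of all 13015 genes tested were called higher and 19.9% lower (40.5% in all). The median change of the tested members was 0.84, against -0.01 for all genes. With scaling to total UMIs alone 14 members were called higher and 2 (Ifit2 and B2m) lower, beside 9.27% and 34.5% of all genes. The experiments also differ in software version, feature set and depth, and these cannot be told apart from the cells. This comparison has 2 residual degrees of freedom, and without the library of 17 h of Experiment 1, or that of 19 h of Experiment 2, 14 members were called.

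The Isg15 system, in which Isg15 is a ubiquitin-like protein that is attached to other proteins and Usp18 is the protease that removes it, showed the step clearly. Isg15 stood at 14.5, 8.14 and 9.31 CPM at 0, 17 and 30 h of Experiment 1, at 103, 77.6 and 58.6 at 0, 19 and 30 h of the no-Dox arm, and at 48, 51 and 37.3 with Dox. The 3 groups of libraries did not overlap, with Experiment 1 lowest and the libraries with Dox between. The change from Experiment 1 to 2 without Dox was 3.37 (SE 0.23, edgeR adjusted p = 6.93e-09). Usp18 stood at 0.79, 0.258 and 0.427 CPM in Experiment 1, at 1.55, 1.37 and 2.3 in the no-Dox arm and at 0.58, 1.3 and 0.475 with Dox. Its libraries without Dox did not overlap between the experiments, and its change was 2.29 (SE 0.35, edgeR adjusted p = 7.71e-05).

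Of the 15 antiviral effectors and related targets that were tested, 12 were higher in Experiment 2 and 0 lower. Oas1a makes the 2'-5' oligoadenylates that activate RNase L. It stood at 0.137, 0.103 and 0.213 CPM in Experiment 1 (4, 2 and 5 UMIs), at 2.12, 2.12 and 2.84 in the no-Dox arm and at 1.28, 1.93 and 1.66 with Dox. All 6 libraries of Experiment 2 were above the 3 of Experiment 1. The change was 4.39 (SE 0.39, edgeR adjusted p = 1.9e-07), but Oas1a passed the filter through Experiment 2, where it is high, and its near copy Oas1g can share reads with it.

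Ifit1 and Ifit3 belong to a family that binds viral RNA and blocks its translation. Ifit1 stood at 8.45, 5.15 and 6.4 CPM in Experiment 1, at 18.6, 18.2 and 25.5 in the no-Dox arm and at 8.68, 16.2 and 8.04 with Dox. Here the libraries with Dox reached down into the range of Experiment 1, and the change between experiments was 2.11 (SE 0.19, edgeR adjusted p = 2.07e-07). Ifit3 stood at 3.98, 2.27 and 4.61 CPM, at 7.16, 7.42 and 6.47 and at 5.51, 6.54 and 4.42 in the same order, a change of 1.44 (SE 0.25, edgeR adjusted p = 0.000277). Its near copy Ifit3b makes its counts less certain. Oasl2, a relative of the oligoadenylate synthetases, changed by 2.18 (SE 0.26, edgeR adjusted p = 5.64e-06), from 2.16, 0.824 and 1.37 CPM to 3.97, 3.71 and 6.68.

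Samd9l, which restrains viral replication and cell growth, stood at 7.07, 8.91 and 6.57 CPM in Experiment 1, at 23.5, 20.9 and 22.7 in the no-Dox arm and at 28.5, 32.5 and 28.3 with Dox. In CPM it did not follow Isg15, since its libraries with Dox were the highest. After TMM scaling its differences with Dox were -0.09, 0.1 and 0.05 at 0, 19 and 30 h, and Samd9l was not called for Dox. Its change between experiments was 2.05 (SE 0.20, edgeR adjusted p = 7.57e-07). The other effectors called higher in Experiment 2 were Rtp4 (1.87), Lgals3bp (1.59), Xaf1 (1.26), Ifi35 (1.22), Ifitm3 (0.96), Eif2ak2 (0.84) and Bst2 (0.82). Of these Ifitm3, Eif2ak2 and Bst2 were not called with scaling to total UMIs alone, where their changes were 0.50, 0.38 and 0.36.

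Ifit2 was the exception within its family. It stood at 10.5, 10.9 and 11.5 CPM in Experiment 1, at 4.1, 5.8 and 8.1 in the no-Dox arm and at 9.91, 14.7 and 13.1 with Dox. The libraries of the no-Dox arm were the lowest for Ifit2 and the highest for Ifit1. The change between experiments of -0.47 (SE 0.19, edgeR adjusted p = 0.0552) missed the threshold. Ifi44 and Zbp1, a sensor of nucleic acids in the Z form that can start cell death, changed by 0.09 (SE 0.34) and 0.39 (SE 0.37) and were not called.

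Among the 4 transcription factors Irf7 (1.36, SE 0.31, edgeR adjusted p = 0.00201) and Irf1 (0.65, SE 0.19, edgeR adjusted p = 0.0109) were higher in Experiment 2. Stat2 and Irf9, which act together at the ISRE, changed by 0.49 (SE 0.19) and 0.32 (SE 0.22) and did not pass. Irf1 lost its call with scaling to total UMIs alone, at 0.19.

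Ddx58, the RNA sensor RIG-I, was the only sensor of the 3 tested that was called, with 0.70 (SE 0.18, edgeR adjusted p = 0.00568), and 0.25 without TMM factors, where it was not called. Dhx58, which encodes the related LGP2, and Trim25, a ubiquitin ligase that acts on RIG-I, changed by 0.17 (SE 0.38) and 0.29 (SE 0.18).

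The ADP-ribosyltransferases Parp14 and Parp9, with Dtx3l, the ubiquitin ligase that pairs with Parp9, were all called higher. Parp14 stood at 0.79, 1.03 and 0.768 CPM in Experiment 1, at 2.99, 3.51 and 3.43 in the no-Dox arm and at 3.84, 6.26 and 4.65 with Dox, again without overlap of Experiment 1 with the other libraries. Its change was 2.41 (SE 0.28, edgeR adjusted p = 3.48e-06). Dtx3l changed by 1.35 (SE 0.20) and Parp9 by 0.79 (SE 0.20), the latter not called without TMM factors. These neighbours overlap on opposite strands, so part of their reads may be exchanged.

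Of the 3 tested genes of antigen presentation 1 was called higher. Psmb9, a subunit of the immunoproteasome, was called at 0.71 (SE 0.22, edgeR adjusted p = 0.0173). It was not called with scaling to total UMIs alone (0.24), nor without the library of 0 h or that of 17 to 19 h of either experiment. Tap1, which carries peptides into the endoplasmic reticulum, changed by -0.03 (SE 0.21). B2m, the light chain of MHC class I, stood at 622, 454 and 374 CPM in Experiment 1, at 233, 288 and 292 in the no-Dox arm and at 299, 378 and 373 with Dox. Its libraries of Experiment 1 were above those of the no-Dox arm, yet its change after TMM scaling of -0.35 (SE 0.24) was not called. Cxcl10, a chemokine that attracts T cells, changed by 0.63 (SE 0.48).

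The remaining members are given by their range over the 9 libraries. Stat2 lay between 6.55 and 12.1 CPM, Irf9 between 2.96 and 5.4, Irf1 between 7.94 and 17.4 and Ddx58 between 7.88 and 16.3. In Stat2, Irf1 and Ddx58 the highest library was that of 19 h with Dox, which was also the highest for Irf9, Trim25 (11.3 to 30 CPM), Parp9 (4.07 to 9.24), Dtx3l (3.4 to 10.1) and Eif2ak2 (18.5 to 43.7), the kinase PKR that stops translation on double-stranded RNA. These ranks are of CPM and need not hold after TMM scaling. The TMM factor was 1.17 at 19 h with Dox and 0.9696 at 30 h of the no-Dox arm. Ifi44 lay between 0.266 and 1.27 CPM, Dhx58 between 0.353 and 0.909 and Ifitm3 between 251 and 486.

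**Figure D2:**
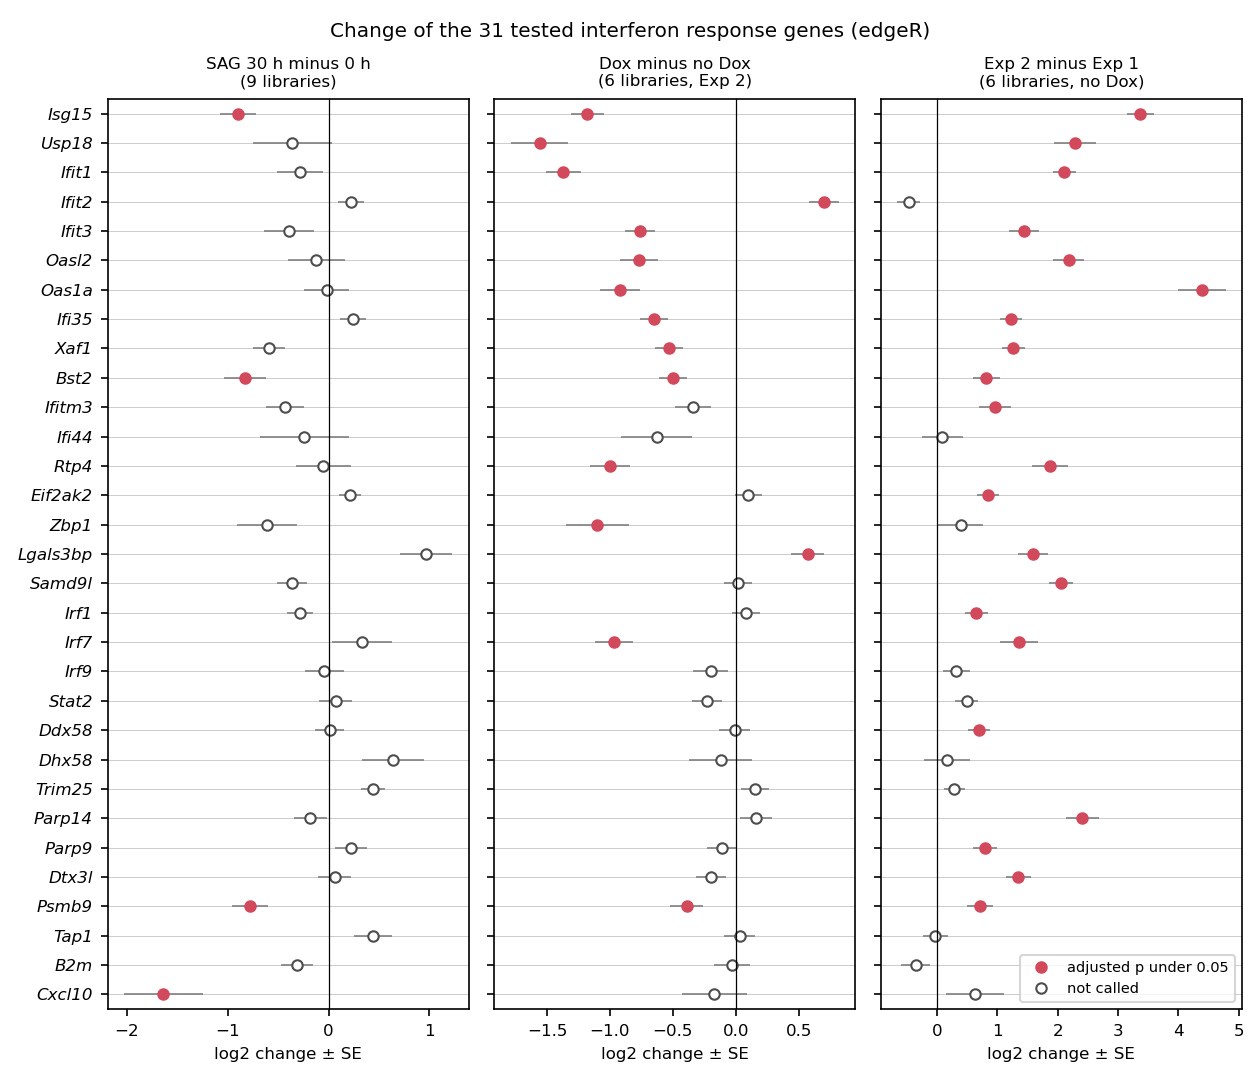
Log2 change ± SE from edgeR of the 31 tested genes at 30 h of SAG against 0 h, with Dox against without and in Experiment 2 against Experiment 1; filled points have an adjusted p under 0.05. In the panel of experiments 21 genes are filled, each on the right, and in the panel of Dox 13 are filled on the left and 2 on the right.

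With Dox, Isg15, Usp18, Ifit1 and several other effectors fell and Ifit2 and Lgals3bp rose. Of the 31 tested members 13 were called lower and 2 higher, where 19.2% of all 13645 genes tested were called lower and 19.2% higher (38.4% in all). The median of the tested members was -0.23, against 0.01 for all genes. Of the 13 tested genes in the group of 14 inducible members defined further on, 10 were called lower and 1 higher, with a median of -0.92. With scaling to total UMIs alone the split turned to 7 lower and 10 higher, beside 3.55% and 50.9% of all genes. The genes lower under either scaling were Ifit1, Isg15, Usp18, Irf7, Rtp4, Oas1a and Zbp1, and those higher were Ifit2 and Lgals3bp. This comparison rests on the 6 libraries of Experiment 2, with a term for SAG time and 2 residual degrees of freedom, with 1 library for each time with Dox. Without SAG time as a term edgeR called 0 members and 194 genes, and in a fit over all 9 libraries 8 members (1 higher and 7 lower) and 1454 genes. The Dox comparison shares its libraries without Dox with the comparison of experiments, so the values of both are not independent. With Dox 5 of the 9 fibroblast markers were called higher, and their summed level was 4956 to 7872 CPM against 2651 to 5950 without. The part of this in the members' changes was not tested.

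In the Isg15 system both genes fell with Dox. Isg15 changed by -1.18 (SE 0.13, edgeR adjusted p = 5.12e-10), with differences of -1.46, -1.15 and -0.91 at 0, 19 and 30 h. Usp18 changed by -1.56 (SE 0.23, edgeR adjusted p = 5.27e-07), and its 1.3 CPM at 19 h with Dox lay close to the 1.37 without.

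Among the effectors 9 of 15 were called lower and 2 higher. Ifit1 changed by -1.37 (SE 0.14, edgeR adjusted p = 7.72e-11), the smallest p among the members, with differences of -1.46, -0.71 and -1.93 at the 3 times. Rtp4 stood at 2, 2.73 and 3.26 CPM without Dox and at 1.3, 2.57 and 1.48 with it (edgeR adjusted p = 5.35e-06). Oas1a fell by 0.92 (SE 0.16, edgeR adjusted p = 1.75e-05). Zbp1, at 0.718, 0.782 and 0.645 CPM without Dox and 0.604, 0.412 and 0.356 with it, changed by -1.10 (SE 0.25, edgeR adjusted p = 0.000539). Its 2 groups of libraries did not overlap.

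The calls of Ifit3 (-0.76, SE 0.12), Oasl2 (-0.77, SE 0.15), Ifi35 (-0.65, SE 0.11), Xaf1 (-0.53, SE 0.11) and Bst2 (-0.50, SE 0.11), for each of which edgeR gave an adjusted p of at most 0.000474, depended on the scaling. Without TMM factors their changes were -0.37, -0.39, -0.26, -0.14 and -0.10 and none was called. Bst2, or tetherin, holds budding virus particles at the cell surface, and Xaf1 binds an inhibitor of apoptosis. Their plain levels without Dox, 36.9, 30 and 21.7 CPM for Bst2 and 14.4, 13 and 13 for Xaf1, overlapped those with Dox, 32.4, 30.5 and 19.6 and 12.9, 15.1 and 9.3. The call of Bst2 was also lost without the library of 0 h with Dox.

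Ifit2 rose with Dox by 0.70 (SE 0.12, edgeR adjusted p = 1.05e-05), from 4.1, 5.8 and 8.1 CPM to 9.91, 14.7 and 13.1, with no overlap. Lgals3bp, a secreted glycoprotein, stood at 2.98, 4.75 and 10.7 CPM without Dox and at 4.88, 14.1 and 15.9 with it, a change of 0.57 (SE 0.13, edgeR adjusted p = 0.000523), and its call was lost without the library of 19 h with Dox.

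Of the transcription factors Irf7 alone was called, at -0.97 (SE 0.15, edgeR adjusted p = 3.12e-06), with 2.08, 2.77 and 4.39 CPM without Dox and 1.5, 2.42 and 2.18 with it. Irf9, Stat2 and Irf1 changed by -0.20, -0.23 and 0.08. No RNA sensor and none of Parp14, Parp9 and Dtx3l was called (edgeR, all 6 also above an unadjusted p of 0.05, and none called by DESeq2). In antigen presentation Psmb9 was called at -0.39 (SE 0.13, edgeR adjusted p = 0.0158), a value that became 0.01 without TMM factors and whose call was lost without either library of 19 h, while Tap1 and B2m changed by 0.04 and -0.03. Without TMM factors edgeR called Irf1, Ddx58, Parp14, Trim25, Eif2ak2, Tap1, B2m and Samd9l higher with Dox.

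SAG time moved few of the members. At 17 to 19 h against 0 h, fitted over all 9 libraries with experiment and Dox as terms, edgeR called 0 of the 31 tested members, beside 0.0217% of all 13837 genes (0.0145% higher and 0.00723% lower). At an unadjusted p under 0.05 there were 2 higher and 2 lower members, and DESeq2 called 1, Cxcl10. The smallest p values were those of Cxcl10 (-1.77, SE 0.40, edgeR adjusted p = 0.206), Isg15 (-0.56, SE 0.17, edgeR adjusted p = 0.318) and Trim25 (0.32, SE 0.13, edgeR adjusted p = 0.406).

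At 30 h against 0 h 4 of the 31 tested members were called lower and 0 higher, where 3.69% of all genes were called lower and 1.98% higher (5.67% in all). The comparisons at 17 to 19 h and at 30 h share their libraries of 0 h. The 4 genes were lower at 30 h than at 0 h in CPM in Experiment 1 and in both arms of Experiment 2. Their calls were less firm: all 4 were lost without TMM factors and without experiment as a term, where Dox was kept as one. All 4 were also lost in the 6 libraries without Dox alone and when any of 7 of the 9 libraries was left out. Without the library of 0 h of Experiment 1 edgeR called 12 members, and without that of 30 h 10.

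Isg15 went from 14.5 to 9.31 CPM in Experiment 1, from 103 to 58.6 in the no-Dox arm and from 48 to 37.3 with Dox, a fitted change of -0.90 (SE 0.18, edgeR adjusted p = 0.0341). Bst2 went from 24.7 to 22.4, from 36.9 to 21.7 and from 32.4 to 19.6 CPM, a change of -0.83 (SE 0.21, edgeR adjusted p = 0.0487). Psmb9 went from 4.22 to 3.33, from 4.72 to 3.63 and from 5.49 to 3.46 CPM, a change of -0.78 (SE 0.18, edgeR adjusted p = 0.0424). The fall in Experiment 1 was the smallest of the 3 arms for both Bst2 and Psmb9.

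Cxcl10 went from 1.37 to 0.171 CPM in Experiment 1, from 0.695 to 0.332 in the no-Dox arm and from 0.749 to 0.502 with Dox, a change of -1.64 (SE 0.39, edgeR adjusted p = 0.0447). Its level at 0 h of Experiment 1 rested on few cells: 37 of the 40 UMIs came from the 9 cells with the largest share of the 14 inducible genes defined below, among which Cxcl10 counts. Without the top 1% of such cells in every library, an alternative added after seeing the data, its change was -0.77 (edgeR adjusted p = 0.142), and Bst2 missed the threshold at -0.81 (edgeR adjusted p = 0.0519), while Isg15 and Psmb9 kept their calls.

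No rise at 30 h passed the test with edgeR, while DESeq2 called Lgals3bp and Trim25 higher and Xaf1 lower in addition. Lgals3bp went from 2.68 to 2.56 CPM in Experiment 1, from 2.98 to 10.7 in the no-Dox arm and from 4.88 to 15.9 with Dox. Trim25, Tap1 and Ifi35 also had higher levels at 30 h than at 0 h in both arms of Experiment 2. From 17 to 19 h to 30 h edgeR called 0 members and 0% of all genes, with 0 members higher and 2 lower at an unadjusted p under 0.05 and 0 called by DESeq2. The smallest p values were those of Psmb9 (-0.47, SE 0.18), Parp14 (-0.38, SE 0.16) and Xaf1 (-0.34, SE 0.16), each with an edgeR adjusted p of 0.767.

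Few members differed between the experiments in their SAG response, and no larger a share of them than of all genes. The libraries of Experiment 1, 1 per time, are fitted exactly here, so the variation comes from the arms of Experiment 2 only. At 17 to 19 h Irf7 was the 1 member called, with a greater change in Experiment 2, beside 6.43% of all 14354 genes (3.45% in that direction and 2.98% in the other). At 30 h 4 members were called, 2 in each direction, beside 17% of all genes (9.36% with a greater and 7.64% with a smaller change in Experiment 2). Bst2 fell by 1.22 and 1.07 at 30 h in the arms of Experiment 2 without and with Dox and by 0.06 in Experiment 1, a difference of -1.14 (SE 0.25, edgeR adjusted p = 0.000672). Lgals3bp rose by 1.39 and 1.35 in the arms of Experiment 2 and by 0.02 in Experiment 1, a difference of 1.31 (SE 0.36, edgeR adjusted p = 0.00697). The same comparison for Dox called 0 members and 0% of all genes with edgeR at either time, with 5 members higher at an unadjusted p under 0.05 at 17 to 19 h and 0 at 30 h, and DESeq2 called 0. The smallest p values were those of Ifi44 at 17 to 19 h (2.58, SE 0.80, edgeR adjusted p = 1) and Cxcl10 at 30 h (1.17, SE 0.92, edgeR adjusted p = 1).

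Within a library, the interferon signal was carried unevenly by the cells. For this, each cell of 10000 or more UMIs was reduced by random draws to 10000, which kept 543 to 2655 cells per library and left out 3923 cells at 19 h of the no-Dox arm. The 14 genes used are the members most typical of induction by interferon: Ifit1, Ifit2, Ifit3, Isg15, Usp18, Rsad2, Oasl2, Oas1a, Irf7, Cxcl10, Ifi44, Rtp4, Xaf1 and Zbp1. Their summed level was 56, 37.9 and 46.4 CPM in Experiment 1, 161, 137 and 133 in the no-Dox arm and 94.1, 119 and 82.5 with Dox. Doublets were not called or removed. Markers of cell types other than fibroblasts were summed per library and not followed in single cells. No other cell type was identified that could give the share of cells with a UMI from free RNA. The part of doublets and of free RNA was not tested.

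In Experiment 1 a very small number of cells held much of the signal. The top 1% of thinned cells held 42.6%, 40.9% and 26.7% of the UMIs of the 14 genes at 0, 17 and 30 h. The same share was 17.2%, 21.2% and 22.4% in the no-Dox arm and 10.5%, 14% and 12.7% with Dox, so the 3 groups of libraries did not overlap. Without Isg15 it ran from 25.4% to 42.9% in Experiment 1, from 23.6% to 29.1% in the no-Dox arm and from 12.9% to 15.4% with Dox, where the first 2 groups overlap. In Experiment 1 the top 1% is 5 to 9 cells per library. The mean there was 0.422 to 0.52 UMIs per cell, against 1.39 to 1.71 in the no-Dox arm, which also affects such a share. The variance over the mean was 14.7, 15.5 and 4.95 in Experiment 1 and 8.82, 10.5 and 10.2 in the no-Dox arm, which overlap. With Dox it was 3.29, 4.61 and 2.72. Without the top 1% of cells by their share of the 14 genes, the summed level fell to 34, 27.5 and 34.1 CPM in Experiment 1, to 134, 112 and 104 in the no-Dox arm and to 85.9, 104 and 72 with Dox, which leaves the experiments apart.

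**Figure D3:**
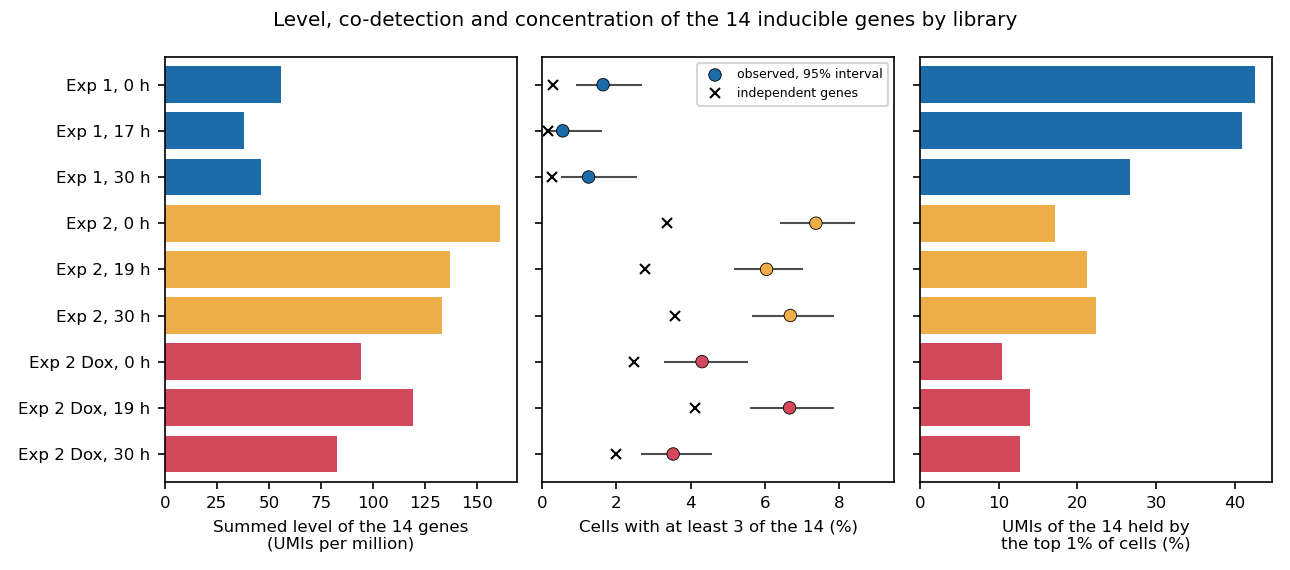
For each library, the summed level of the 14 inducible genes in CPM (left), the share of thinned cells with at least 3 of the 14 genes with its exact 95% interval and the share that independent genes would give as a cross (middle), and the share of the UMIs of the 14 held by the top 1% of cells (right). Experiment 1 has the lowest summed levels, 37.9 to 56, and the highest shares in the top 1% of cells, 26.7% to 42.6%.

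Genes with a like number of UMIs differed in how many cells held them. At 0 h of Experiment 1 Ifit1 had 77 UMIs in 19 of the 917 thinned cells, with up to 21 in a cell, and the top 1% of cells by Ifit1 held 84.4% of them. Ifit2 had 91 UMIs in 83 cells there, with at most 2 in a cell, and its top 1% held 18.7%. Ifit1 was thus found in few cells with many copies and Ifit2 in many cells with 1 or 2.

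The share of cells with an Isg15 UMI was 7.09%, 4.79% and 5.55% in Experiment 1, 42.9%, 39.5% and 30% in the no-Dox arm and 32.9%, 31.8% and 27.7% with Dox. At 0 h the exact 95% interval was 5.51% to 8.95% in Experiment 1, which covers counting error only. Ifit1 was found in 2.07%, 2.58% and 1.61% of cells, in 8.7%, 7.86% and 8.06% and in 7.33%, 8.73% and 4.38% in the same order. For both genes every library of Experiment 2 was above every library of Experiment 1, and for Ifit1 the libraries with and without Dox overlapped.

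Ifit2 was found in the fewest cells in the no-Dox arm, with 9.05%, 10.3% and 10.9% of cells in Experiment 1, 4.11%, 5.58% and 8.16% in the no-Dox arm and 9.22%, 12.9% and 12.9% with Dox. Ifitm3, which blocks the entry of viruses, and B2m were found in most cells of every library, from 86.4% to 97.1% and from 88.4% to 99.6%. Cxcl10 was found in at most 0.454% of the cells of a library. At 17 h of Experiment 1 it was found in 0 of 543 thinned cells, which allows a share of up to 0.552%.

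Cells in which 3 or more of the 14 genes had a UMI were more frequent in each of the 9 libraries than if the genes were found independently of each other. They were 15 of 917, 3 of 543 and 7 of 559 cells in Experiment 1 (1.64%, 0.552% and 1.25%), where independence gives 2.55, 0.892 and 1.39 cells. In the no-Dox arm they were 196 of 2655, 157 of 2597 and 137 of 2047 cells (7.38%, 6.05% and 6.69%), where independence gives 89.3, 71.9 and 73.5 cells. With Dox they were 57 of 1323, 129 of 1935 and 54 of 1529 cells (4.31%, 6.67% and 3.53%), against 32.8, 79.8 and 30.4.

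The excess over independence was thus 3.37 to 5.88 times in Experiment 1, 1.86 to 2.2 times in the no-Dox arm and 1.62 to 1.78 times with Dox. The count of 3 such cells at 17 h of Experiment 1 is small. For at least 4 of the 14 genes the excess was 62.8 to 102 times on 3 to 7 cells in Experiment 1, 7.39 to 9.51 times without Dox and 3.66 to 4.98 times with Dox in Experiment 2. For at least 2 genes it was 0.96 to 1.11 times, above 1 in 5 of the 9 libraries. Counted over the 32 members other than B2m and Ifitm3, cells with at least 3 were 0.889 to 1.06 times as frequent as independence gives and above 1 in 1 library. Cells reach 3 genes more easily in a longer list, so this ratio says little about the other members. The excess also depends on how often the genes are found. For at least 3 of the 14 genes at 5000 UMIs it was 13.8, 17.4 and 14.7 times in Experiment 1. In the no-Dox arm it was 3.84, 2.71 and 4.79 times there, and 2.37, 2.43 and 2.05 times with Dox. Its size therefore does not rank groups whose levels differ.

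**Figure D4:**
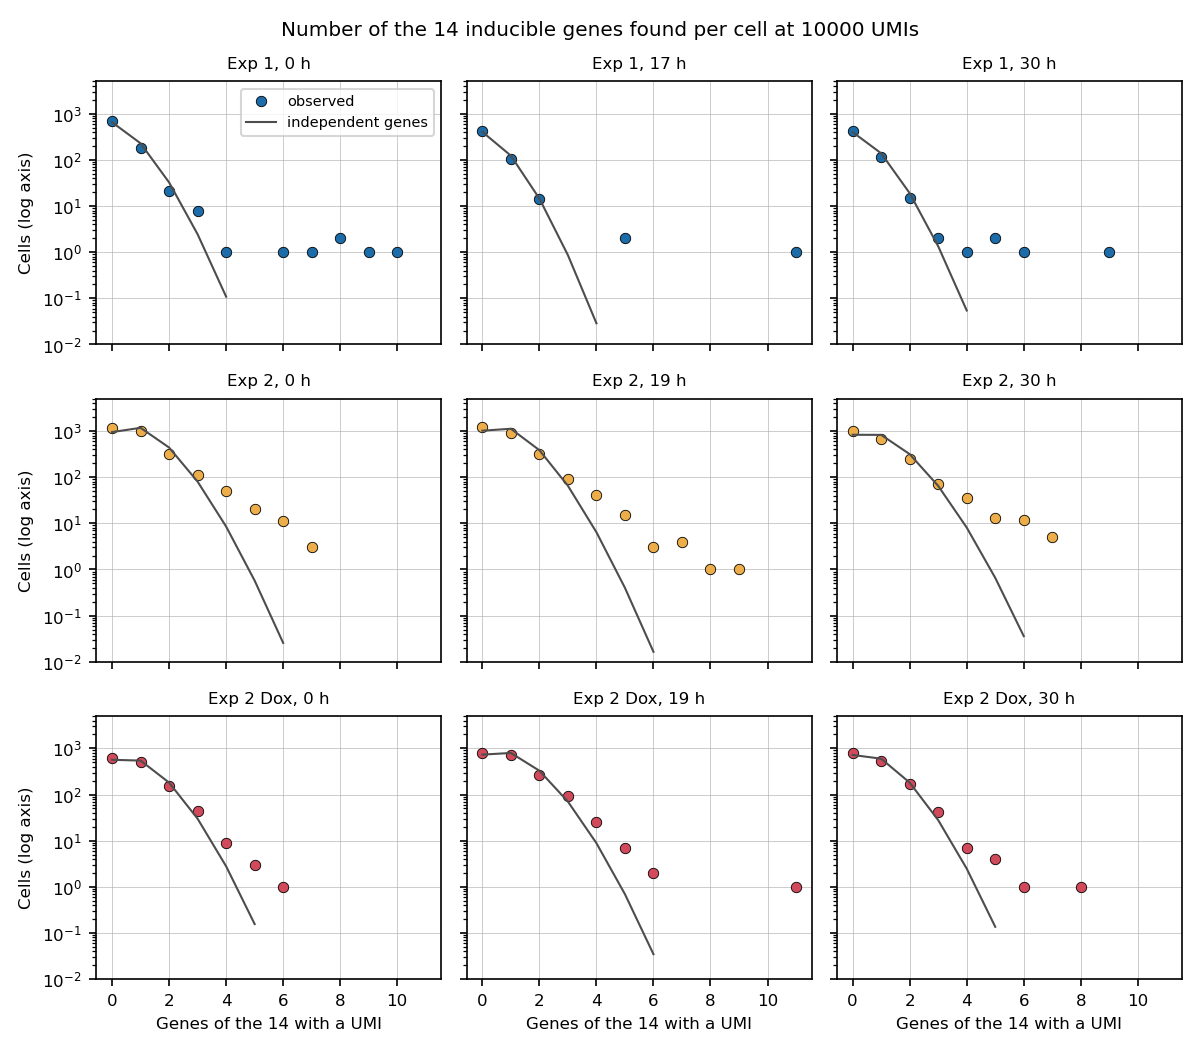
Number of the 14 inducible genes with a UMI per thinned cell (horizontal axis) and the number of cells on a log axis, 1 panel per library; points are the observed counts and lines the counts that independent genes would give. Single cells with 9 to 11 of the genes lie far to the right of the lines in each library of Experiment 1 and at 19 h of Experiment 2 without and with Dox.

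The most genes found in any cell were 10, 11 and 9 in Experiment 1, 7, 9 and 7 in the no-Dox arm and 6, 11 and 8 with Dox. Cells with none of the 14 made up 75.3% to 77.3% in Experiment 1, 43.8% to 48.8% in the no-Dox arm and 41.8% to 50.8% with Dox. Cells with at least 3 of the genes had a lower median depth before thinning than the other cells in all 6 libraries of Experiment 2, for example 27014 against 30068 UMIs at 0 h without Dox. At 0 h of Experiment 1 it was 32981 against 29441.

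Pairs of the 14 genes were found together in the same cells more often than independence gives, summed over the libraries. Of the 91 pairs 71 had an expected count of at least 1 cell, 68 of these were above the expectation and 38 above 2 times it. Ifit1 and Ifit3 were found together in 176 cells where 45.2 were expected (3.89 times), and Ifit1 and Oasl2 in 156 where 41.1 were expected (3.8 times). Among the 71 pairs Oasl2 and Zbp1 had the highest ratio, with 22 cells against 2.94 (7.5 times). Isg15 and Ifit1 shared 635 cells against 336 expected (1.89 times). The 3 of the 71 pairs below the expectation were Oas1a with Irf7 (0.701 times), Isg15 with Cxcl10 (0.891) and Ifit2 with Oas1a (0.97). As near copies can share reads, part of the ratio within the Ifit family was not separated from counting.

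In the 6 libraries of Experiment 2, where such cells are numerous, cells with at least 3 of the 14 genes also had more of the other members. Of the 20 other members 18 had enough UMIs for a ratio, and their median ratio of levels to the remaining cells was 1.94, with 14 higher in all 6 libraries. Dhx58 had the highest ratio (5.43), followed by Irf9 (3.03), Parp14 (2.68), Parp9 (2.48), Stat2 (2.35), Ddx58 (2.3) and Dtx3l (2.17). The factors of the ISRE complex and the RNA sensors were therefore among the genes that went along with the 14, while Irf1 (1.14), Psmb9 (1.15) and B2m (1.2) differed little. Of 55 measured further interferon targets the median ratio was 1.57, with Gbp3 at 7, Irgm2 at 6.03 and Ifi47 at 4.34. Other lists gave 1.15 for receptors and signalling, 1.07 for the machinery that induces interferon, 1.1 for NF-kB targets and chemokines and 1.12 for fibroblast markers. Among the last, 5 of 9 were higher in all 6 libraries. Of these Lum (1.88) and Dcn (1.63) had ratios like those of members such as Ifitm3 (1.53), and Pdgfrb (1.22), Fn1 (1.12) and Col1a2 (1.1) lower ones.

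**Figure D5:**
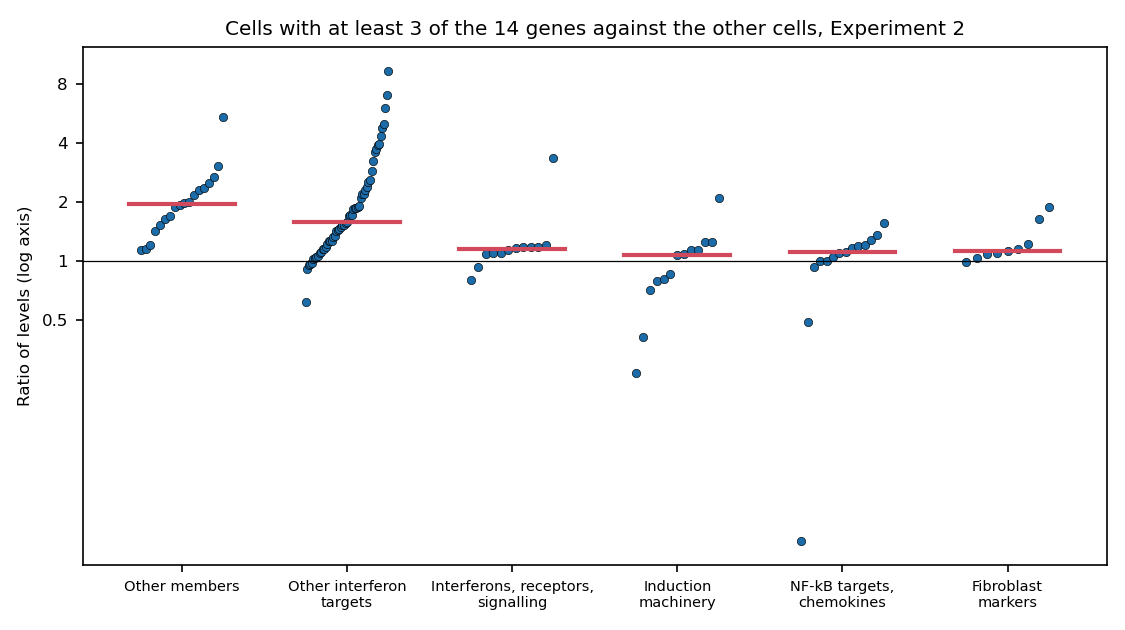
Ratio of the level in thinned cells with at least 3 of the 14 genes to that in the other cells, as a mean over the 6 libraries of Experiment 2, on a log axis; each point is a gene, grouped by list, and bars are list medians. The medians are 1.94 for the other members and 1.57 for other interferon targets, against 1.07 to 1.15 for the lists of signalling, induction machinery, NF-kB targets and fibroblast markers.

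Genes outside the members whose thinned counts followed the sum of the 14 closely across cells were Trim30a (median Pearson's r over the libraries 0.175), Phf11d (0.137), Irgm1 (0.124), Cavin2 (0.123), Ifi27l2a (0.117), Itm2b (0.114), Lox (0.114), Ifi202b (0.113) and Efemp1 (0.113). They are among the first 10 of 9922 genes ranked, of which 99% had a median r of at most 0.0514. The correlations are weak, as in sparse counts, and are given as a description with no test.

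The interferons themselves were hardly found. Ifnb1 had 0 UMIs in all libraries, as had the interferon alpha and lambda genes looked at, and Ifne, Ifnk and Ifng had 18, 26 and 5. The receptor genes were present in every library, Ifnar1 at 9.86 to 16.3 CPM and Ifnar2 at 28.1 to 71.5. Ifnar2 was higher in Experiment 2 by 1.40 (SE 0.22, edgeR adjusted p = 9.08e-05) and changed with Dox by -0.52 (SE 0.12, edgeR adjusted p = 0.00103). Socs1, an inhibitor of the receptor's kinases, rose with Dox by 0.80 (SE 0.11, edgeR adjusted p = 3.33e-07). Of the 13 tested genes of this list 5 were called higher and 1 lower with Dox, beside 19.2% of all genes in each direction. In Experiment 2 against 1, 2 were called higher and 1 lower, beside 20.6% and 19.9% of all genes.

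A list of 72 further interferon targets, of which 68 were found (Mx1, Mx2, Oas1b and Cxcl11 were not analysed here), gave counts beside those of the members. In Experiment 2 against 1, 39 of 57 tested were called higher and 2 lower, beside 20.6% and 19.9% of all genes. With Dox 19 of 60 were called lower and 5 higher, beside 19.2% of all genes in each direction. Ccl5, a chemokine, stood at 26.3, 16.5 and 18.6 CPM in Experiment 1, at 39.2, 62.4 and 34.2 in the no-Dox arm and at 8.94, 23.6 and 14.6 with Dox, a change with Dox of -1.97 (SE 0.13, edgeR adjusted p = 8.78e-16). H2-T23 (-0.96), Herc6 (-0.66) and Isg20 (-0.60) were also called lower with Dox, and changed by 1.33, 1.52 and 1.64 between the experiments. At 30 h of SAG 1 of 60 was called, Irgm1 (-0.83, SE 0.15, edgeR adjusted p = 0.0324), beside 5.67% of all genes, of which 3.69% lower. Of the 15 tested NF-kB targets and chemokines, a group that shares Cxcl10's inducers in part, 7 were called lower at 30 h of SAG, among them Ccl2 (-2.28, SE 0.27, edgeR adjusted p = 0.00843) and Vcam1 (-0.81, SE 0.12, edgeR adjusted p = 0.0201).

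Members with and without the ISRE letters in their windows can be set side by side, with no test. With Dox 5 of the 11 tested genes with the letters were called lower and 0 higher, against 5 lower and 2 higher of the 14 without. Of all genes 19.2% were called in each direction. In Experiment 2 against 1 the counts called higher were 8 of 11 and 9 of 14, beside 20.6% of all genes. At 30 h of SAG those called lower were 3 of 11 and 1 of 14, beside 3.69% of all genes. Members whose reads may be shared with a gene on the opposite strand are Usp18, Irf1, Irf7, Ifi35, Dhx58, Cxcl10, Rtp4, Parp9, Dtx3l, Eif2ak2, Psmb8, Psmb9, Tap1 and B2m, since the counting strand is not given in the sources used here. Irf9, Rtp4 and Parp14 overlap a gene on the same strand.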

How the data were processed

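RNA of single cells was measured in 9 libraries. The authors deposited raw UMI counts for each barcode and gene. Per the submitters' processing notes they were made with Cell Ranger against mm10, and per the file headers with version 3.1.0 for Experiment 1 (31054 features) and 6.0.1 for Experiment 2 (32286). Whether counting used the strand is not given in the sources used here.

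Features were joined by gene ID (30407 shared, 597 with a changed symbol). Cells of 5000 or more UMIs were kept if mitochondrial genes gave no more than 10%. That limit removed 25.9% to 46.3% of barcodes with at least 5000 UMIs. Sums over kept cells held 19407468 to 105444824 UMIs per library. Genes were tested with edgeR 4.0.16 in R 4.3.3 (filterByExpr, TMM factors, quasi-likelihood F test, Benjamini-Hochberg adjustment over all genes tested, called under 0.05). SAG times used all 9 libraries with the arm (experiment and Dox) as a block and 4 residual degrees of freedom. Dox used the 6 libraries of Experiment 2 and the experiment comparison the 6 without Dox, each with SAG time as a block. Differences of the SAG response used an interaction term, with 2 residual degrees of freedom. The libraries of Experiment 1, or those with Dox in the test for Dox, are then fitted exactly and add nothing to the estimate of variation. SE values come from the change and the root of its F statistic. Changes within an arm compare log2 CPM (TMM factors, prior count 2). DESeq2 1.42.0 was the other tool.

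The libraries pair by experiment and time per the labels: differences between the experiments at the 3 times correlated at 0.69 to 0.8 across 13837 genes, and those for Dox at 0.63 to 0.69. In simulated counts the fit for 30 h of SAG recovered 80% of genes changed by a log2 value of 1 and 99% by 2, with 8.21% false calls. The Dox fit recovered 88% and 96% with 8% false calls, and the fit between experiments 66% and 96% with 4.14%. The fit for the experiment difference of the SAG response at 30 h recovered 23% and 83% with 2.75% false calls.

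Values per cell used scipy 1.17.1, numpy 2.4.6 and pandas 2.3.3 in Python 3.11.15 on cells thinned to 10000 UMIs, with exact binomial (Clopper-Pearson) 95% intervals and a limit of 3 counts for a count of 0, both for counting error only. Independence means that each gene is found at its own share of cells in the library (Poisson-binomial). No doublet caller was run. Promoters are RefSeq windows on GRCm38.p6. Gene overlaps are from GENCODE on the same build. The members and lists were chosen with earlier results of these data known. Values are given for members that were called and for the 3 of smallest p in a comparison (1 for differences of a response), and from other lists for up to 4 called genes by p and a few fixed ones. A gene that this rule names is not reported here.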

Additional observations from a re-analysis of the deposited data

Results flagged for a closer look

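The SAG response of 5 member genes differed between the experiments by a test of that difference, 1 of 31 tested at 17 to 19 h, where 6.43% of all genes were called, and 4 of 31 at 30 h, where 17% were. These shares are not above those of all genes. Experiment 1 has 1 library per time, which this test fits exactly. Its p-values therefore rest on how the arms of Experiment 2 with and without Dox differ, and hold no measure of variation in Experiment 1. At 17 to 19 h Irf7 changed by -1.59 in Experiment 1, by 0.23 in Experiment 2 without Dox and by 0.33 with Dox, a difference of 1.88 (SE 0.50, edgeR adjusted p = 0.0126), which DESeq2 did not call (adjusted p = 0.128). It was also not called without the library of 0 h of Experiment 2 without Dox.

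At 30 h Bst2 changed by -0.06 in Experiment 1, -1.22 in Experiment 2 without Dox and -1.07 with Dox, a difference of -1.14 (SE 0.25, edgeR adjusted p = 0.000672). Ifit3 changed by 0.29, -0.59 and -0.66 in the same order, a difference of -0.97 (SE 0.31, edgeR adjusted p = 0.0204). Neither was called without TMM factors, where the differences were -0.61 and -0.44. Lgals3bp changed by 0.02, 1.39 and 1.35, a difference of 1.31 (SE 0.36, edgeR adjusted p = 0.00697). Tap1 changed by -0.19, 0.83 and 0.77, a difference of 0.94 (SE 0.28, edgeR adjusted p = 0.0143), and overlaps Psmb9 on the opposite strand. Both were also called without TMM factors, though DESeq2 called Bst2 alone of the 4. Ifit3 and Tap1 lost their calls without the library of 0 h of Experiment 2 without Dox, and these and Lgals3bp without that of 30 h or that of 0 h with Dox. Experiment cannot be told apart from software version and depth.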

How the results depend on the processing

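Of 845 alternative values for 53 member results, 719 kept direction and side of the threshold, 117 fell short of it, 6 came past it and 3 changed sign. Dox against no Dox for Psmb9 became 0.01 without TMM factors, and the Dox difference at 30 h for Cxcl10 became -0.20 without the mitochondrial limit and -0.02 without the top 1% of cells. The cause of these moves was not tested.

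Counts of called genes moved as follows. At 17 to 19 h of SAG (3 genes, 0 members) they were 110 and 1 with DESeq2, 186 and 1 with no filter on low counts, 14 genes with no mitochondrial limit, and 0 to 2487 genes and 0 to 6 members with 1 library left out. At 30 h (785 and 4) they were 1888 and 7 with DESeq2, 2212 and 7 with no filter, 12 and 0 without TMM factors, and 1 to 5994 and 0 to 12 with 1 library left out. From 17 to 19 h to 30 h (0 genes) there were 7 with no filter and 0 to 15 with 1 library left out. For Dox (5233 and 15) the counts with 1 library left out were 2956 to 4301 and 14 to 18. Between experiments (5270 and 21) they were 2656 to 5262 and 14 to 21.

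For the Dox difference of the response (0 genes) 12 were called at 17 to 19 h with no filter, 1 in cells of at least 10000 UMIs, 10 with no mitochondrial limit, 1 without TMM factors and 0 to 169 with 1 library left out. At 30 h there were 10, 18 with no mitochondrial limit and 0 to 163. For the experiment difference at 17 to 19 h (923 and 1) the counts were 362 and 0 with DESeq2, 503 genes in cells with 1% to 10% mitochondrial UMIs, 1599 and 5 without TMM factors, 3 members with no filter, 0 members with no mitochondrial limit, and 262 to 2546 and 0 to 9 with 1 library left out. At 30 h (2440 and 4) they were 1184 and 1 with DESeq2, 4271 genes without TMM factors, and 696 to 4151 and 1 to 6 with 1 library left out.

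Without the replicate block, which is the experiment, edgeR called 0 genes at 17 to 19 h and 0 genes and 0 members at 30 h of SAG. For Dox, without SAG time as a term, it called 194 genes and 0 members. With the replicate block in the 6 libraries without Dox alone 13 genes and 0 members were called at 30 h, and with it over all 9 libraries 1454 genes and 8 members for Dox. Co-detection above independence held in 9 of 9 libraries for at least 3 of the 14 genes, in 5 for at least 2, and in 1 over all members but B2m and Ifitm3. Low counts limit Rsad2, Ifih1 and Psmb8, and Usp18, Oas1a, Dhx58, Ifi44, Zbp1 and Cxcl10, under 3 CPM in every library, also rest on few UMIs.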
